A study of Mus musculus with 16 samples.

Results

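The factors that start and extend protein synthesis on cytosolic ribosomes were followed in the aged mouse brain as 67 protein-coding genes of 40481 in the count table, namely those whose symbols begin with Eif1 to Eif6 (55 initiation genes) or with Eef1 or Eef2 (12 elongation genes). The genes were taken by symbol, and this rule was set with earlier results of these data known. It also takes in genes named after these factors that act on them, such as kinases and methyltransferases, and it leaves out mitochondrial factors and the proteins that end translation.

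RNA came from the brains of 16 male C57BL mice (C57BL/6J in the study's text) bought at 18 months of age, and each mouse is named here by the pair of numbers in its label, whose meaning was not given in the sources used here. Adropin is a peptide hormone encoded by Enho, and 8 mice received synthetic adropin at 90 nmol/kg per day as a single intraperitoneal injection in saline with bovine serum albumin. The other 8 mice received this saline diluent alone. Injections began 2 weeks before behavioural tests and went on through them, and all mice were fasted for 6 h before tissue was taken. The label names the brain but no region, and poly-A selected RNA of the whole sample was sequenced, so that fewer cells of a type and less RNA per cell cannot be told apart. Total counts per mouse ran from 35026503 to 70314050. The 67 genes took 0.995% ± 0.0285 of all counts under adropin and 1.003% ± 0.0327 under saline (n = 8 per group, SD), with overlapping ranges (two-sided exact permutation test, p = 0.647).

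Initiation begins when eIF2 carries the initiator tRNA to the small ribosomal subunit, helped by eIF1, eIF1A, eIF3 and eIF5, while the eIF4 factors bind the mRNA cap and unwind the leader. The kinases of eIF2 alpha slow this step under stress by blocking the exchange factor eIF2B, and the eIF4E-binding proteins slow it when mTORC1 is inactive. During elongation eEF1A delivers each aminoacyl-tRNA, the eEF1B subunits recharge eEF1A with GTP, and eEF2 moves the ribosome by a codon. In neurons the form Eef1a2 takes the place of Eef1a1 as the cell matures.

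In these brains the elongation factors were the most abundant of the group. Levels between genes are compared as TMM-normalized counts per 1000000 (CPM) divided by exon length in kb, averaged over 16 mice. The length is the union of all annotated exons of a gene, and ranks between genes depend on it. Eef1a2 stood at 621 ± 40.1 CPM per kb, Eef1a1 at 566 ± 29.1 and Eef2 at 372 ± 36.3 (SD, n = 16), which ranked them 25, 32 and 65 among 14949 genes tested. The order of the first pair depended on the length used, since part of the Eef1a1 exons also occurs in other genes. With the full count divided only by exon found in no other gene, Eef1a1 stood at 676 CPM per kb and Eef1a2 at 621. This assumes that no read from the shared part was counted, so 676 is an upper value for Eef1a1. Together these 3 genes made up 49.9% of the summed level of the 67 genes. The 12 elongation genes held 55.8% of that sum and the 55 initiation genes 44.2%, while the median gene stood at 15.52 CPM per kb for elongation and 14.5 for initiation. The abundance of elongation factors thus lay in a few genes.

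Among initiation genes the highest were Eif5a, the hypusine-bearing factor that also serves elongation, at 140 ± 16.3 CPM per kb, and Eif1, which guards start codon choice, at 129 ± 16.2. Eif3h led the 14 eIF3 genes at 83.5 and the helicase gene Eif4a2 led the eIF4 group at 82.9. Before division by length Eif3c, at 176 CPM under adropin and 171 under saline, stood above Eif3h, at 132 and 137. The eIF2 subunits and initiator tRNA carriers were far lower, with Eif2s2, the beta subunit, the highest of 6 at 11.3. The kinases of eIF2 alpha ranged from 0.994 for Eif2ak2, which responds to double-stranded RNA, to 12.1 for Eif2ak1, which responds to a lack of heme. The eIF4E-binding proteins had a median of 2.45 over 4 genes.

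**Figure D1:**
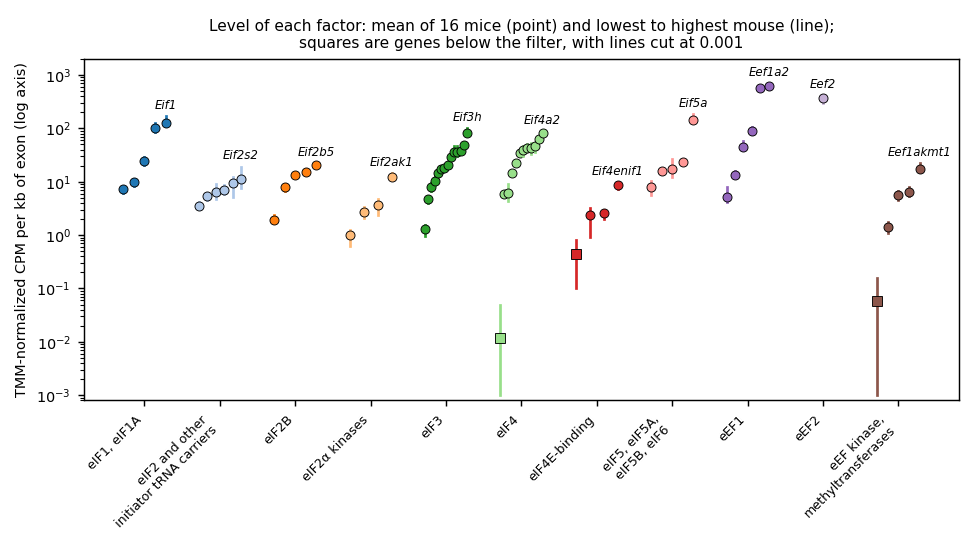
Level of each of the 67 genes in TMM-normalized CPM per kb of exon on a log axis, arranged by role, with the mean of 16 mice as a point and the lowest to highest mouse as a line. Eef1a2, Eef1a1 and Eef2 stand above all other genes, and the 3 squares mark the genes that were too low to test.

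The bases before the transcript start of the 3 most abundant genes, and of the gene pair Eif2s2 and Eif2ak3 that later values turn on, are shown so that the promoters of genes with high levels and of genes that moved in opposite ways between mice can be compared. Sequences are from RefSeq on GRCm38.p6, 150 bases each, read 5′ to 3′ on the strand of the gene and ending just before the start. Capitals mark, on either strand, the TATA box (TATAAA), the core bound by ETS factors (CCGGAAG), the CCAAT box, the GC box (GGGCGG), the core of the cyclic AMP element (TGACGT) and the E-box (CACGTG). The windows are chr2:181157016-181157165 (minus strand) for Eef1a2, chr9:78481725-78481874 (minus) for Eef1a1, chr10:81176481-81176630 (plus) for Eef2, chr2:154892907-154893056 (minus) for Eif2s2 and chr6:70844365-70844514 (plus) for Eif2ak3.
Eef1a2: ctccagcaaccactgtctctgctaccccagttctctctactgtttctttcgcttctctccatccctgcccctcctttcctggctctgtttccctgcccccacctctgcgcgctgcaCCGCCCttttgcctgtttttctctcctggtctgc
Eef1a1: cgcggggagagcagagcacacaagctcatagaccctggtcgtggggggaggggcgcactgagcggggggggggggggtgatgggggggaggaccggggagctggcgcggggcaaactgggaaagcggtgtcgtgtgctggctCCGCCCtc
Eef2: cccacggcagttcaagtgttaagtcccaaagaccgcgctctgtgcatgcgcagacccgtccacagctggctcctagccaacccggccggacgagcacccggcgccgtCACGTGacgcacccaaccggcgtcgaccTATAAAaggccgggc
Eif2s2: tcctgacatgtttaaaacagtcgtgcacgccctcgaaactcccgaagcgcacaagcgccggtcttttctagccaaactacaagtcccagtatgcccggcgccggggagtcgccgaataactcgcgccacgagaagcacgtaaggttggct
Eif2ak3: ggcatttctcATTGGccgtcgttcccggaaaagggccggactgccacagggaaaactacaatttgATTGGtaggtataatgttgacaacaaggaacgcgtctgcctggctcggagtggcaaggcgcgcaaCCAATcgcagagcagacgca

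Of the 67 genes, 51 had a promoter in the RefSeq table, which lists 27025 genes of all kinds, and the 250 bases before each start were searched for the same letters on both strands. The GC box was present in 37 of the 51 genes (72.5%) and in 35.4% of all genes listed. The ETS core was present in 12 (23.5%, against 7.83%), the E-box in 11 (21.6%, against 6.86%) and the cyclic AMP core in 9 (17.6%, against 7.29%). The TATA box was present in 5 (9.80%, against 14.3%) and the CCAAT box in 15 (29.4%, against 37.5%). Of the 3 most abundant genes Eef2 carried the TATA box, while Eef1a1 and Eef1a2 each carried the GC box. These letters were chosen with the promoters in hand, the comparison set includes non-coding genes, and a match does not show that a factor binds.

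The first comparison asked whether adropin altered the level of any of these mRNAs. No difference was detectable with these 16 mice. The filter asked for a level above 1 CPM in 7 or more mice and kept 64 of the 67 genes, and edgeR's quasi-likelihood test was run on all 14949 genes that passed it. None of the 64 had an unadjusted p below 0.05 (0 higher and 0 lower), where 3.99% of all genes tested did (1.86% higher and 2.13% lower in adropin). None had a Benjamini-Hochberg adjusted p below 0.05, as for all genes (0%), and limma-voom and DESeq2 also called none of the 64 at either threshold, while DESeq2 called 5 other genes after adjustment. No gene of the 64 had ranges that did not overlap between groups (0.00669% of all genes tested did).

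The differences were small and their intervals narrow. Over the 64 genes the log2 fold change of adropin minus saline ran from -0.19 to 0.13. The 95% interval lay within a 1.2-fold change in either direction for 47 of 64 genes (73.4%), against 44.1% of all genes tested, and within a 1.5-fold change for 64 of 64 (100%, against 90.4%). For 11 genes it lay within a 1.1-fold change. The biological coefficient of variation had a median of 10.1% over the 64 genes and of 13.6% over all genes tested, and it ranged from 7.07% to 29.5% over the 64. All genes tested were not matched to the 64 in level, so these contrasts do not separate the role of a gene from its abundance.

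**Figure D2:**
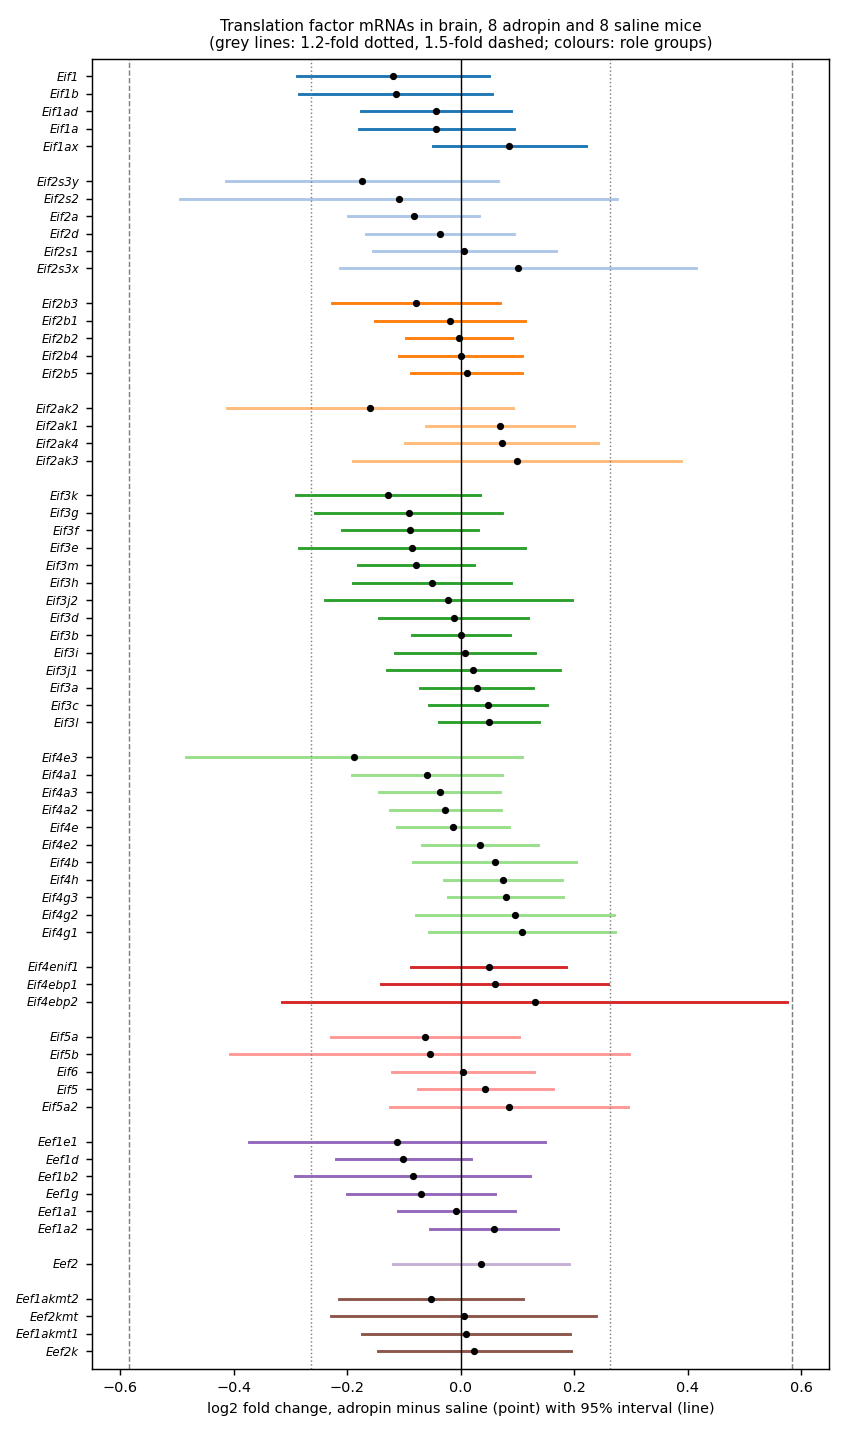
Log2 fold change of adropin minus saline for each of the 64 genes tested (points) with its 95% interval (lines), arranged by role, from 8 mice per group. Every interval includes 0 and lies inside the dashed lines at a 1.5-fold change, and those of Eif4ebp2 and Eif2s2 are the widest.

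The medians of initiation and elongation genes both lay close to 0. The median log2 fold change was -0.0026 over 53 initiation genes, of which 27 were below 0, and -0.0073 over 11 elongation genes, of which 6 were below 0. Over all 14949 genes it was -0.0019, with 50.8% below 0. The medians of elongation and initiation genes differed by -0.0046, and this difference changed sign between alternatives, from -0.0327 to 0.00491 with each mouse left out and to 0.0119 with mice blocked by their first label number. In that blocked fit the medians were -0.0714 for initiation (38 of 53 below 0) and -0.0595 for elongation (8 of 11 below 0), while that of all genes was -0.00065. Only 8 mice carried a first number found in both groups, so that fit draws its comparison from them. The biological coefficient of variation had a median of 9.84% for initiation and 11.2% for elongation genes.

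Of the elongation genes, Eef1a1, which delivers aminoacyl-tRNA in most cells, ran from 1318 through a median of 1405 to 1495 CPM in adropin-treated mice and from 1295 through 1397 to 1541 in saline-treated mice. The log2 fold change came to -0.01 (standard error 0.05, edgeR adjusted p = 0.981). The ranges of the groups were nearly the same. Of its exons, 16.3% of 100-base windows also occur in transcripts of other genes, and since only uniquely aligned reads were counted its level may be understated. Eef1a2, the form of neurons and muscle, ran from 1163 through 1341 to 1433 CPM in adropin and from 1158 through 1279 to 1355 in saline. The log2 fold change came to 0.06 (standard error 0.05, edgeR adjusted p = 0.875), and the ranges overlapped from 1163 to 1355 CPM. Eef2, which drives translocation, ran from 1084 through 1285 to 1348 CPM in adropin and from 980 through 1227 to 1404 in saline, so that the adropin range lay inside that of saline. The log2 fold change came to 0.04 (standard error 0.07, edgeR adjusted p = 0.918).

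The subunits of eEF1B, which recharge eEF1A, had slightly lower means in adropin. Eef1d, the delta subunit, had the smallest unadjusted p of all 64 genes. It ran from 77.6 through 83.3 to 94.4 CPM in adropin and from 80.1 through 88.9 to 101 in saline. Its log2 fold change was -0.10 (95% interval -0.22 to 0.02, edgeR adjusted p = 0.874), and the ranges overlapped. Without adropin mouse 4_3, its highest adropin value, the log2 fold change was -0.12 and the unadjusted p fell below 0.05, with an edgeR adjusted p of 0.511. The same omission raised the share of all genes with such a p from 3.99% to 9.67%. Eef1b2, the alpha subunit of the exchange factor, ran from 99.4 through 107 to 136 CPM in adropin and from 99.5 through 109 to 150 in saline. The lowest mice of the groups were level, and the log2 fold change was -0.08 (standard error 0.10). Eef1g, the gamma subunit, ran from 203 through 221 to 251 CPM in adropin and from 212 through 226 to 273 in saline, with a log2 fold change of -0.07 (standard error 0.06). Of its windows 32.4% are shared with other genes. Eef1e1, a scaffold of the aminoacyl-tRNA synthetase complex, had the largest change of the elongation genes at -0.11 (standard error 0.12), with medians of 15.7 CPM in adropin and 16.3 in saline.

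The genes whose products modify elongation factors had log2 fold changes close to 0. Per kb of exon the highest of these was Eef1akmt1, at 17.7 CPM. Eef2k, the calcium-dependent kinase that inactivates eEF2 at synapses, had medians of 42.3 CPM in adropin and 42.3 in saline, with a log2 fold change of 0.02 (standard error 0.08). Its values spread from 37.7 to 47.3 in adropin and from 33.4 to 49.7 in saline. The methyltransferase genes Eef1akmt1, Eef1akmt2 and Eef2kmt had log2 fold changes of 0.01, -0.05 and 0.01 (standard errors 0.09, 0.08 and 0.11). For Eef2kmt, at 3.88 ± 0.495 CPM under adropin against 3.86 ± 0.604 under saline (n = 8 per group, SD), 17.6% of exon bases overlap Alg1 on the other strand, and whether counting used strand was not given in the sources used here. Eef1akmt3 stayed under the filter, with 0 to 18 counts per mouse.

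**Figure D3:**
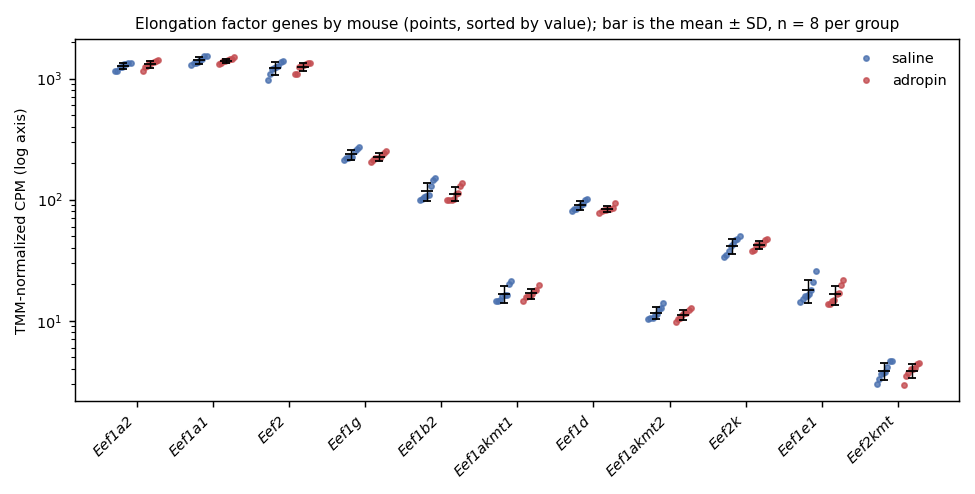
TMM-normalized CPM of the 11 elongation genes tested in each of 8 saline (blue) and 8 adropin (red) mice on a log axis, with the mean ± SD as a bar. The groups overlap for every gene, and the genes span from 2.96 CPM for Eef2kmt to 1541 CPM for Eef1a1.

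Of the initiation genes, those of the scanning factors eIF1 and eIF1A had a median log2 fold change of -0.04 over 5 genes, 4 of them below 0. Eif1 ran from 236 through 258 to 293 CPM in adropin and from 241 through 265 to 356 in saline, so that the saline range reached higher. Its log2 fold change was -0.12 (95% interval -0.29 to 0.05, edgeR adjusted p = 0.874). Eif1b, its close copy, had a log2 fold change of -0.11 (standard error 0.08), from medians of 105 and 115 CPM. Eif1ax, on the X chromosome, differed the other way at 0.09 (standard error 0.06), from medians of 131 CPM in adropin and 127 in saline. Eif1a was at -0.04.

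The eIF2 subunits, which bind the initiator tRNA, differed in sign. Eif2s2 ran from 54.1 through 67.7 to 111 CPM in adropin and from 51.9 through 68.8 to 129 in saline, with a log2 fold change of -0.11 (95% interval -0.49 to 0.28). The medians were nearly equal while the highest mouse of each group stood far above them. Eif2s3x, the gamma subunit from the X chromosome, ran from 26.7 through 38.6 to 47.1 CPM in adropin and from 19.3 through 37.2 to 44.1 in saline, and its log2 fold change was 0.10 (standard error 0.15). Eif2s3y, the Y-linked copy, was at -0.17 (standard error 0.11), from medians of 25.3 and 26.9 CPM. Without adropin mouse 4_3 it was at -0.23 with an unadjusted p below 0.05 (edgeR adjusted p = 0.511), among 9.67% of all genes. Of the windows of Eif2s3x 33.7% are shared with other genes. The alternative carrier Eif2a was at -0.08 (standard error 0.05).

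The 5 genes of the exchange factor eIF2B ran from -0.08 for Eif2b3 to 0.01 for Eif2b5, the catalytic subunit, which stood at 53.7 ± 2.47 CPM under adropin against 53.4 ± 3.04 under saline (n = 8 per group, SD). Of the 4 kinases of eIF2 alpha, Eif2ak2 ran from 3.24 through 4.85 to 6.07 CPM in adropin and from 4.27 through 5.37 to 6.24 in saline, with a log2 fold change of -0.16 (95% interval -0.41 to 0.09, edgeR adjusted p = 0.874). The other 3 kinases had log2 fold changes of 0.07 to 0.10. Eif2ak1 was at 0.07 (standard error 0.06), from medians of 68.8 and 66.9 CPM.

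The 14 genes of eIF3, the scaffold that joins mRNA and small subunit, had a median log2 fold change of -0.02 with 8 below 0. Eif3k, a peripheral subunit, had the smallest p of them. It ran from 81.5 through 89.1 to 108 CPM in adropin and from 87.9 through 93.3 to 126 in saline, with a log2 fold change of -0.13 (95% interval -0.29 to 0.04, edgeR adjusted p = 0.874). The ranges shared most of their width. Without adropin mouse 4_3 it was at -0.16 and its unadjusted p fell just below 0.05 (edgeR adjusted p = 0.511), again among 9.67% of all genes. Eif3h had medians of 132 CPM in both groups and a log2 fold change of -0.05. Eif3j1 and Eif3j2 share 44.2% and 84.0% of their windows with other genes, mainly with each other, so the split of reads between them is uncertain.

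The cap-binding and helicase factors had a median log2 fold change of 0.03 over 11 genes tested, 5 of them below 0. Eif4g3, a scaffold that ties eIF4E to eIF4A, had the smallest p of this group and ran from 368 through 394 to 406 CPM in adropin and from 329 through 374 to 407 in saline. Its log2 fold change was 0.08 (95% interval -0.02 to 0.18, edgeR adjusted p = 0.874), and the highest mice of the groups were level. Without saline mouse 5_4 it was at 0.10 and its unadjusted p fell below 0.05, with an edgeR adjusted p of 0.998, beside 3.32% of all genes. Eif4g1 and Eif4g2 were at 0.11 and 0.10 (standard errors 0.08 and 0.08). Eif4e3, a cap-binding relative of eIF4E, had the largest change of all 64 genes, and 14.83% of its exon bases overlap another gene on the same strand. It ran from 11.2 through 13.1 to 20.7 CPM in adropin and from 13.1 through 14.8 to 23.0 in saline, with a log2 fold change of -0.19 (95% interval -0.48 to 0.11, edgeR adjusted p = 0.874), and the ranges shared most of their width. Eif4e, the cap-binding protein itself, was at -0.01 (standard error 0.05), with 86.4 ± 4.84 CPM under adropin against 87.2 ± 4.51 under saline (n = 8 per group, SD). Eif4a1 and Eif4a2 were at -0.06 and -0.03 (standard errors 0.06 and 0.05), and 22.6% of the windows of Eif4a1 are shared with other genes. Eif4e1b, known from oocytes, had 0 to 4 counts per mouse.

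The eIF4E-binding proteins, which hold eIF4E away from the scaffold, were above 0 in 3 of 3 genes tested, with Eif4ebp2 at 0.13 (95% interval -0.31 to 0.58, edgeR adjusted p = 0.899). Its values ran from 7.73 through 14.9 to 18.2 CPM in adropin and from 5.38 through 13.7 to 18.8 in saline, which is the widest relative spread of the 64 genes, with a biological coefficient of variation of 29.5%. Per kb of exon Eif4ebp2 stood at 2.35 CPM and Eif4ebp1 at 2.55 over the 16 mice. Eif4enif1, which carries eIF4E into the nucleus, was at 0.05 (standard error 0.06). Eif4ebp3 stayed under the filter with 3 to 24 counts per mouse, and 67.3% of its exon bases overlap another gene on the same strand. In the last group Eif5a was at -0.06 and Eif5a2 at 0.08 (standard errors 0.08 and 0.10).

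The balance between related genes was compared next, since a shift between paralogues can leave their sum level. For 10 pairs the log2 ratio of counts per kb was taken in each mouse, which does not depend on library scaling, and tested by a two-sided exact permutation of the group labels, with p-values adjusted over the 10 pairs. Eef1a2 exceeded Eef1a1 in 14 of 16 mice and took 52.3% of their sum (from 49.5% to 55.3%). With the full counts divided only by exon found in no other gene this turned, with Eef1a2 above Eef1a1 in 3 of 16 mice. Eef1a2 then stood at 47.9% of the sum (from 45.03% to 50.8%), so the data do not settle which of the pair was higher. The difference between groups does not depend on the length used. The log2 ratio averaged 0.17 ± 0.10 under adropin against 0.10 ± 0.09 under saline (n = 8 per group, SD), a difference of 0.06 (95% interval -0.04 to 0.17, exact p = 0.207, adjusted p = 0.733). Eif4a2 exceeded Eif4a1 in 16 of 16 mice, with 66.0% of their sum, and the log2 ratio differed by 0.03 (95% interval -0.09 to 0.15, exact p = 0.570). Eif1b stayed below Eif1 in all 16 mice at 43.8% of the sum, and the difference was 0.00 (95% interval -0.07 to 0.07, exact p = 0.952), the tightest of the pairs. None of the 10 differences passed, with adjusted p-values from 0.733 to 0.952. An alternative permuted labels only among mice with the same second label number, where both groups carried it (14 mice). There the difference was 0.10 for Eef1a2 to Eef1a1 (exact p = 0.0867) and 0.02 for Eif1b to Eif1 (exact p = 0.575), without adjustment.

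The remaining pairs had intervals of differing width. Eif1ax took 77.4% of the sum with Eif1a, and the difference between groups was 0.13 (95% interval -0.06 to 0.31, exact p = 0.160), the smallest p of the 10. Eif5a2 took from 3.03% to 7.64% of the sum with Eif5a, with a difference of 0.14 (95% interval -0.24 to 0.53, exact p = 0.440). Eif4e2 and Eif4e3 took 29.1% and 29.7% of their sums with Eif4e. Eif4e3 differed by -0.18 (95% interval -0.49 to 0.13, exact p = 0.236) and Eif4e2 by 0.05 (95% interval -0.06 to 0.16, exact p = 0.383). Against Eif4g1, Eif4g3 differed by -0.03 (exact p = 0.757) and Eif4g2 by -0.02 (exact p = 0.653). Eif2s3y took from 28.6% to 64.3% of the sum with Eif2s3x and had the widest interval, with a difference of -0.29 (95% interval -0.88 to 0.29, exact p = 0.314).

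**Figure D4:**
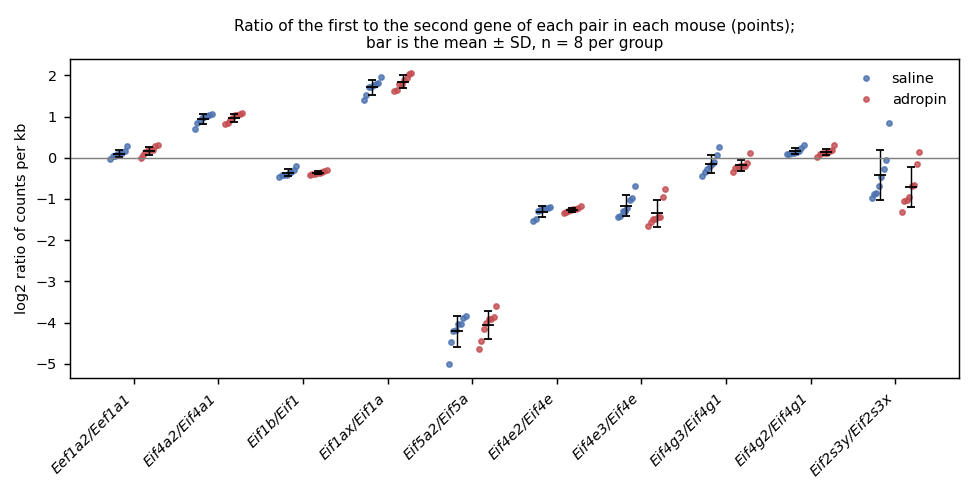
Log2 ratio of counts per kb for 10 pairs of related genes in each of 8 saline (blue) and 8 adropin (red) mice, with the mean ± SD as a bar. The groups overlap in every pair, and the spread between mice is widest for Eif2s3y to Eif2s3x and narrowest for Eif1b to Eif1 in adropin.

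The larger differences lay between mice of the same group and ran through both groups. They were described by the correlation of each gene with the mean of 81 ribosomal protein genes, both as log2 TMM-normalized CPM with the group mean subtracted. That mean ran from 6.999 to 7.581 in adropin-treated mice and from 7.080 to 7.776 in saline-treated mice, and the 4 highest were adropin mice 3_3 and 4_3 and saline mice 5_4 and 8_3. It was lower on average in adropin, since 81 of 81 ribosomal protein genes had log2 fold changes below 0 (median -0.12), although none reached an unadjusted p of 0.05. Of the 64 genes 23 had a correlation above 0.8 with it and 7 one below -0.8 (35.9% and 10.9%), against 8.86% and 10.1% of the other genes tested, ribosomal protein genes left out. These correlations describe 16 mice whose libraries differ in depth and composition, and within a mouse all genes come from the same library. They carry no test.

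Genes that followed the ribosomal proteins included 6 elongation and 17 initiation genes. The highest was Eif2s2, with r = 0.97 over 16 mice and 0.95 without the 2 mice farthest from the median, adropin mouse 4_3 and saline mouse 5_4. Its level was 97.2 and 111 CPM in adropin mice 3_3 and 4_3 and 129 and 106 in saline mice 5_4 and 8_3, against 83.3 or less in every other mouse. Eif5b, the GTPase that joins the ribosomal subunits, followed in the same way, at 208, 250, 257 and 217 CPM in those mice and 172 or less in the others (r = 0.96). Of the exon bases of Eif5b 16.85% overlap Rev1 on the other strand. Eef1b2, Eif3g, Eif3k, Eef1akmt1 and Eif5a had r from 0.95 to 0.97. Outside the rule for naming genes, Eif5b, Eif3g, Eif3j1, Eif3j2, Eif2ak3, Eif2ak4, Eif4b, Eif5 and Eif2a were singled out after their values were seen.

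The genes that went the other way were all initiation genes: Eif2ak3, Eif2s3x, Eif4ebp2, Eif2ak4, Eif4g1, Eif4b and Eif5a2. Eif2ak3, the kinase known as PERK that senses misfolded protein in the endoplasmic reticulum, had r = -0.92 (-0.83 without the same 2 mice). Its level was 17.4 and 15.0 CPM in adropin mice 3_3 and 4_3 and 14.2 and 17.8 in saline mice 5_4 and 8_3, and 21.1 or more in the other mice. Eif2s3x had r = -0.89 with the ribosomal protein mean (-0.78 without the same 2 mice), so that this subunit of eIF2 and Eif2s2 differed in the sign of their correlation with it. Without those 2 mice 16 of the 23 genes stayed above 0.8 and 2 of the 7 below -0.8. Of the 14 genes above 0.8 with a listed promoter 7 held the GC box, and of the 7 genes below -0.8 it was present in 6, beside 72.5% of the 51 genes. The ETS core and the E-box were each present in 4 of the 14 and 2 of the 7, and the CCAAT box in 5 and 2. The cyclic AMP core was present in 2 and 2, and the TATA box in 1 and 0. The GC box thus had the widest split of the 6 motifs, and no difference was tested.

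**Figure D5:**
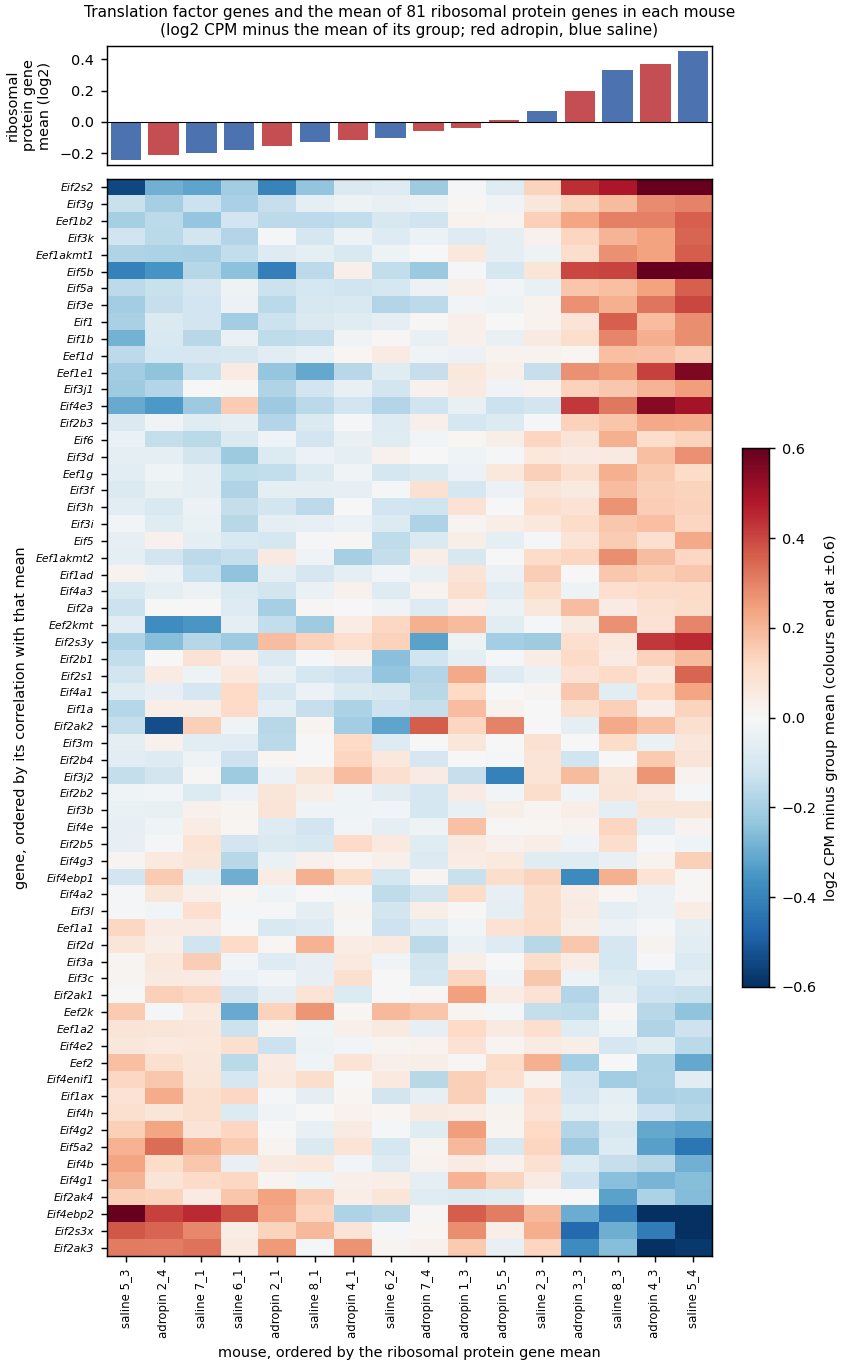
Each of the 64 genes (lines of the colour map) in each of 16 mice (columns), as log2 CPM minus the group mean, with mice ordered by the mean of 81 ribosomal protein genes, which the bars show. The 4 mice at the right, from both groups, are high for Eif2s2, Eif5b and Eef1b2 and low for Eif2ak3, Eif2s3x and Eif4ebp2.

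The relation with the ribosomal protein mean was tested for 4 single genes, Eef1a1, Eef1a2, Eif4a1 and Eif4a2, by 100000 permutations with adjustment over the 4. Eef1a1 had r = -0.15 (p = 0.571, adjusted p = 0.761) and rho = -0.20 (p = 0.455). Eef1a2 had r = -0.58 (p = 0.0181, adjusted p = 0.0362), but rho was -0.43 (adjusted p = 0.201) and r fell to -0.21 without the same 2 mice, so the relation rests on those mice. Eif4a1 had r = 0.60 (p = 0.0131, adjusted p = 0.0362), rho = 0.50 (adjusted p = 0.196) and r = 0.29 without them, and it too rests on those mice. For Eif4a2 r was 0.05 (permutation p = 0.841). Within the adropin group r was -0.80 for Eef1a2 (exact permutation p = 0.0171) and 0.71 for Eif4a1 (exact p = 0.0440), and within saline -0.42 (exact p = 0.287) and 0.53 (exact p = 0.146).

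Transcript length moved with both measures. The log2 fold change and exon length had a Spearman correlation of 0.34 across the 64 genes and of 0.38 across all 14949 genes. In genes of up to 2000 bases the median log2 fold change was -0.05 over 6 factor genes and -0.08 over all genes, and above 6000 bases it was 0.03 over 18 and 0.05 over all. Of the 64, genes above 0.8 in the correlation with the ribosomal proteins had a median exon length of 2702 bases, and those below -0.8 one of 5784. Among the other genes tested, ribosomal protein genes left out, these medians were 2132.5 and 7792.5. Eif2s2 and Eif5b, both above 0.8, went against this order with 6755 and 9753 bases. The mean of all genes over 6000 bases had r = -0.95 with the ribosomal protein mean over the 16 mice. For the log2 percent of counts in the gene Gm42418 r was -0.58, and for log2 total counts it was -0.14. The part of RNA length, quality or library in these values was not tested. With the ribosomal protein mean as a covariate, chosen after seeing the data, Eef1akmt1, Eif5, Eif2s2 and Eif5b had an unadjusted p below 0.05 at log2 fold changes of 0.10, 0.09, 0.10 and 0.12, each with an edgeR adjusted p of 0.999. These were 4 of the 64 genes, beside 4.201% of all genes tested in that fit. Without the 4 mice of the highest ribosomal protein mean, Eif4e3 (-0.23), Eif2a (-0.11) and Eif4g3 (0.10) did so, with edgeR adjusted p-values from 0.411 to 0.490, among 10.1% of all genes tested.

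Markers placed the samples as brain, with the summed level of 4 neuron genes between 4473 and 6071 CPM and no marker of any list at 0 in all mice. The 6 choroid plexus genes summed to between 11.3 and 73.6 CPM in adropin and between 12.6 and 2465 in saline, where mouse 8_3 was highest and the next mouse stood at 329, and 5 of 5 tested were lower in adropin at an unadjusted p below 0.05. The same mouse was highest for 4 cerebellar neuron genes, at 281 CPM against at most 34.97 in the other saline mice and 37.8 in adropin, and 1 of 2 tested was lower in adropin at such a p. Of the 64 translation factor genes 0 had such a p with that mouse and 0 without it, where 2.77% of all genes tested did. The summed level of choroid plexus genes had r = 0.70 with the ribosomal protein mean and that of 2 oligodendrocyte precursor genes r = -0.81. That of astrocyte genes had r = -0.61 and that of microglia genes r = -0.62, and 1 of 4 microglia genes had an unadjusted p below 0.05 and was higher in adropin. The other 6 lists had r from -0.25 to 0.55. The part of these cell types in the movement between mice was not tested.

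Genes around these factors in the pathway were read beside all genes tested, of which 3.99% had an unadjusted p below 0.05 (1.86% higher and 2.13% lower in adropin). Among 6 termination and recycling genes, 5 poly-A binding proteins and partners and 9 mitochondrial translation factors, none had such a p in edgeR, with median log2 fold changes of -0.0010, -0.0039 and -0.02. In signalling through mTORC1 and MNK, which acts on eIF4E and its binding proteins, 1 of 14 genes had such a p and was higher. This was Mlst8, a subunit of mTORC1, at 17.1 ± 1.87 CPM under adropin against 14.9 ± 1.402 under saline (n = 8 per group, SD), which gave a log2 fold change of 0.19 (standard error 0.08; edgeR adjusted p = 0.874). It had r = -0.88 with the ribosomal protein mean. Of 12 genes tested in the integrated stress response, which follows phosphorylation of eIF2 alpha, 1 had an unadjusted p below 0.05 and was higher and 1 did so and was lower. Ddit4, an inhibitor of mTORC1 induced by stress, was at 32.7 ± 4.48 CPM under adropin against 38.6 ± 4.49 under saline (n = 8 per group, SD), which gave a log2 fold change of -0.24 (standard error 0.09; edgeR adjusted p = 0.874). Slc7a11, the cystine carrier, was at 37.3 ± 6.19 and 30.7 ± 6.36 CPM, which gave a log2 fold change of 0.28 (standard error 0.12; edgeR adjusted p = 0.874). The ranges overlapped for each of the 3 genes, and none passed adjustment.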

How the data were processed

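RNA-seq was performed on poly-A selected RNA from 16 brains. Per the labels and methods, the authors aligned reads with STAR to Ensembl release 76 (GRCm38), counted them per gene with featureCounts, keeping only unique and unambiguous alignments, and deposited these counts without scaling. A table of CPM was not used here. Of 40757 entries 276 repeats were dropped. TMM factors were calculated in edgeR 4.0.16 (R 4.3.3), genes above 1 CPM in at least 7 mice were kept, 355 ribosomal RNA genes were left out, and groups were compared by the quasi-likelihood test with no covariate. The fit was tested on simulated data. Ratios added 0.5 to each count, and correlations used log2 CPM with a prior count of 2. Exon lengths are unions of GENCODE M21 exons on GRCm38. Alternatives were limma-voom (limma 3.58.1), DESeq2 1.42.0 and its size factors, library size only, no filter, ribosomal protein genes left out, each label number as a block and each mouse left out, and 3 chosen after seeing the data (the ribosomal protein mean as a covariate, its 4 highest mice left out, and levels per kb of exon whose 100-base windows occur in no other gene). The members, roles, lists and tests were chosen with earlier results of these data known. Genes named were all elongation genes, those that failed the filter, genes with an unadjusted p below 0.05, the most abundant, most changed and smallest-p gene of each role and both genes of each pair. Each mouse was 1 replicate. How far depth limits precision at each level was not tested.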

Additional observations from a re-analysis of the deposited data

Results flagged for a closer look

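A mouse stood apart from the other 7 of its group, by a gap of over 0.526 of the group's range, in 3 of 92 groups checked, where chance gives about 4.6. Eef1d in adropin mouse 4_3 was at 94.4 CPM, with the next mouse at 84.8. Eif4e in adropin mouse 1_3 was at 97.5 CPM, with the next at 87.6. The log2 ratio of Eif4g3 to Eif4g1 in adropin mouse 4_3 was 0.12, with the next at -0.13.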

How the results depend on the processing

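None of the translation factor genes passed an adjusted p of 0.05 under any of the 26 alternatives. At an unadjusted p below 0.05, the count of higher genes went from 0 to 4 with the ribosomal protein mean as a covariate (4.201% of all genes passed there) and to 1 without the 4 mice of the highest mean, where lower genes went to 2 (10.1% of all genes). Leaving out each mouse gave from 0 to 1 higher and from 0 to 3 lower genes, beside 2.56% to 9.67% of all genes, with the 3 lower genes where adropin mouse 4_3 was left out and 9.67% passed. The first label number as a block moved the medians of initiation and elongation genes to -0.0714 and -0.0595. Leaving out a mouse reversed the log2 ratio difference for Eif4a2 to Eif4a1 (range -0.000646 to 0.0540), Eif1b to Eif1 (-0.0110 to 0.0267), Eif4g3 to Eif4g1 (-0.0720 to 0.0274) and Eif4g2 to Eif4g1 (-0.0410 to 0.00392). The difference kept its sign but moved by over 1.5 times for Eif5a2 to Eif5a (0.0303 to 0.224), Eif1ax to Eif1a (0.0816 to 0.164), Eif4e3 to Eif4e (-0.266 to -0.112) and Eif2s3y to Eif2s3x (-0.413 to -0.112), each nearest 0 without saline mouse 5_4, and for Eif4e2 to Eif4e (0.0149 to 0.0646), nearest 0 without saline mouse 8_3. The causes were not tested. For the named genes alone, 36 of the 64 tested, log2 fold changes stayed within 1 SD between mice in 935 of 936 values, with 48 changes of sign. Of the 26 alternatives 16 leave out 1 mouse, which can move a group mean by only part of that SD. The count within 1 SD was therefore nearly fixed in advance and does not measure stability. With mice blocked by either of their label numbers 0 genes were higher and 0 lower, beside 2.19% of all genes for the first number and 2.81% for the second. The labels do not say what these numbers mark, and several mice of a group share one, so they were used as blocks and not as pairs.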
